A study of Mus musculus with 11 samples.

Results

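The Id and E protein family with its partner Ascl2 was described as 7 genes, Id1, Id2, Id3, Tcf3, Tcf4, Tcf12 and Ascl2, taken by symbol. All 7 are among the 29224 genes of a bulk RNA table of follicular regulatory T (Tfr) cells and among the 31053 genes of a single-cell matrix. The study concerns Sostdc1, whose secreted product antagonises BMP and Wnt ligands, in follicular T cells of C57BL/6 mice. The bulk table holds 1 library labelled Sostdc1 knockout (KO; genotype Sostdc1 homo) and 1 labelled WT, both of Tfr cells from draining lymph nodes, sorted as positive for CXCR5 and PD1 and high for GITR. The single-cell data are 1 droplet library of CD4 T cells positive for CD44, from draining lymph nodes of mice heterozygous for a Sostdc1-EGFP reporter. The labels give neither the age of the mice nor how many were pooled, and 8 of the 11 samples were not analysed here.

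With 1 library in each group, no difference between groups could be tested. All intervals below are 95% intervals that cover counting error only, not the spread between mice. The bulk libraries held 27777625 counts (labelled KO) and 18076300 counts (labelled WT). Foxp3, the defining Treg factor, stood at 1164 CPM in the library labelled KO, against 1471 CPM in the library labelled WT, where CPM are counts scaled by the total of their library. Sostdc1 itself went against the labels, at 16.5 CPM in the library labelled KO, against 0.221 CPM in the library labelled WT, so the genotype behind each library is taken from its label only. The part of the gene that was altered is not given in the labels, so these counts do not say whether the protein was made. The single-cell library had 106127466 unique molecular identifiers (UMIs) in 15002 barcodes, with a median of 5673 UMIs per barcode. After filtering, 9969 T cells remained. No Cd4 UMI was required, and 95 of them had at least 2 UMIs of Trdc and Tcrg-C1, the gamma-delta receptor genes. Those 95 cells had 530 CPM of Id2, against 183 CPM in T cells with no UMI of these genes.

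Class I basic helix-loop-helix (bHLH) factors, the E proteins, bind the DNA letters CANNTG (an E-box) as dimers; in T cells they are encoded by Tcf3 (E2A), Tcf12 (HEB) and Tcf4 (E2-2). Id proteins have the dimerization domain but no basic region, so an E protein bound to an Id protein cannot bind DNA. In mouse CD4 T cells Id2 is associated with Th1 effector cells and Id3 with Tfh and memory-type cells, and both restrain follicular regulatory differentiation of Treg cells. Ascl2 is a tissue-restricted bHLH factor that pairs with E proteins and induces Cxcr5, the receptor that brings T cells to the B cell follicle.

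The proximal promoters of the 4 members on which the results turn are shown because the family acts through E-boxes and can act on its own genes. Each run is the 250 bases before the annotated start in RefSeq on GRCm38.p6, 5′ to 3′ on the strand of the gene, with every CANNTG in capitals. Id2 lies at chr12:25096093-25096342 (minus strand), Id3 at chr4:136143572-136143821 (plus strand), Tcf3 at chr10:80433636-80433885 (minus strand) and Ascl2 at chr7:142969265-142969514 (minus strand). Windows were found for 5 of the 7 members; Id1 and Tcf4 are named only.
Id2: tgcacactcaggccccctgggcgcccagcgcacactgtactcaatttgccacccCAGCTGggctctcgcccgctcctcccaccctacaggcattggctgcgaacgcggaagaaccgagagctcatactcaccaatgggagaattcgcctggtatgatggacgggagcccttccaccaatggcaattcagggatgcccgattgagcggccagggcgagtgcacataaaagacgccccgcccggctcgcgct
Id3: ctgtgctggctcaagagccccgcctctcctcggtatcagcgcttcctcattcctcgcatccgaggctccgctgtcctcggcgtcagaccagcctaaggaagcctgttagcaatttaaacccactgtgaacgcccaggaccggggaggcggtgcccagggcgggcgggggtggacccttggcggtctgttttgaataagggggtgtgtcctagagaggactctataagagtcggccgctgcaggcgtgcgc
Tcf3: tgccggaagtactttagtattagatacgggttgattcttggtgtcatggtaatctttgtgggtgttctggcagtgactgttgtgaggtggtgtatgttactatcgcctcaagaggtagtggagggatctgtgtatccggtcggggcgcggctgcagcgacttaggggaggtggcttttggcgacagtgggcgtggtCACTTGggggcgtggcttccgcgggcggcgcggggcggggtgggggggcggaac
Ascl2: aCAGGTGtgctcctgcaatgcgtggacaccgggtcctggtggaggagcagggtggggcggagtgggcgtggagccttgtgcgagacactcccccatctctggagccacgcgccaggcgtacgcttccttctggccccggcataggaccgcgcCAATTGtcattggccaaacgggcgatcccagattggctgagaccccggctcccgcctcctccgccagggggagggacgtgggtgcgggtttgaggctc

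CANNTG reads as CANNTG on both strands, so 1 search covers both. The Id2 window holds 1 E-box, CAGCTG at -196 from the start. The Id3 window holds 0, the Tcf3 window holds 1 (CACTTG at -54), and the Ascl2 window holds 2 (CAGGTG at -249 and CAATTG at -98). An E-box occurs in 66.2% of all 32851 promoter windows of this length, so its presence in 3 of these 4 windows is close to that share. The GC-rich Smad motif GGCGCC, searched on both strands, is in the Id2 window at -231 and in 9.59% of all windows. The Egr motif GCGNGGGCG, searched on both strands, is in none of the 4 windows and in 4.70% of all windows. These are matches of letters and not binding sites.

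T cells were divided by the UMIs of 3 genes that define the populations of the study. The Tfh gate held 732 cells with Cxcr5 and Pdcd1 (which encodes PD-1) and no Foxp3, the Tfr gate 76 cells with all 3 genes, and the Treg gate 1551 cells with Foxp3 alone. The 7139 other T cells had no Foxp3 and lacked Cxcr5, Pdcd1 or both. The median was 7392.5 UMIs per cell in the Tfh gate, 10162.5 in the Tfr gate, 5833 in the Treg gate and 5763 in other T cells, so levels are given as CPM of the summed UMIs and shares of cells after thinning each cell to 3000 UMIs. The defining genes that were not used to gate followed the names for Tfh cells: Bcl6, the Tfh-defining repressor, had 64.0 CPM in the Tfh gate and 10.6 CPM in other T cells, and Il21, which encodes a Tfh cytokine, had 76.1 CPM in the Tfh gate and 9.04 CPM in other T cells. The cycling marker Mki67 was also higher in the Tfh gate, at 185 CPM, than in other T cells, at 93.6 CPM; its part in the differences below was not tested beyond the values given without cycling cells.

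Of the 7 members, Ascl2 had the largest ratio between the Tfh gate and other T cells. It had 224 UMIs in 122 of 732 Tfh-gate cells, or 32.7 CPM (28.5 to 37.2), against 67 UMIs in 51 of 7139 other T cells, or 1.39 CPM (1.08 to 1.77). This is a 23.5-fold higher level in the Tfh gate (17.8 to 31.3). After thinning, an Ascl2 UMI was found in 9.23% of Tfh-gate cells and in 0.410% of other T cells. No Ascl2 UMI was found in 213 B cells of the same library, which had a median of 4032 UMIs; in the 177 of them thinned in the same way the upper Clopper-Pearson limit is 2.06%. Of the 5 members with at least 10 CPM in either population, 1 (Ascl2) was at least 2-fold higher in the Tfh gate, where 3.46% of the 7480 genes at this level were, and 1 (Id2) was at least 2-fold lower, where 1.72% were. Ascl2 reached 10 CPM only through the Tfh gate, where it is high.

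Ascl2 was low with either gate marker alone. Foxp3-negative cells with Cxcr5 alone (595 cells) had 3.24 CPM of Ascl2 (1.72 to 5.54) and those with Pdcd1 alone (1000 cells) had 4.04 CPM (2.86 to 5.55), levels whose intervals overlap. Cells with none of the 3 markers had 0.461 CPM (0.264 to 0.749). Among Foxp3-negative cells thinned to 3000 UMIs, Ascl2 stood at 2.49 CPM in 6547 cells with no Cxcr5 UMI, 21.4 CPM in 530 cells with 1, 56.2 CPM in 166 cells with 2 and 41.7 CPM in 56 cells with 3 or more. The last 2 intervals overlap. By Pdcd1 UMIs Ascl2 stood at 1.68, 16.9, 29.1 and 92.7 CPM for 0, 1, 2 and 3 or more UMIs, and the intervals at 1 and 2 UMIs overlap.

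**Figure D1:**
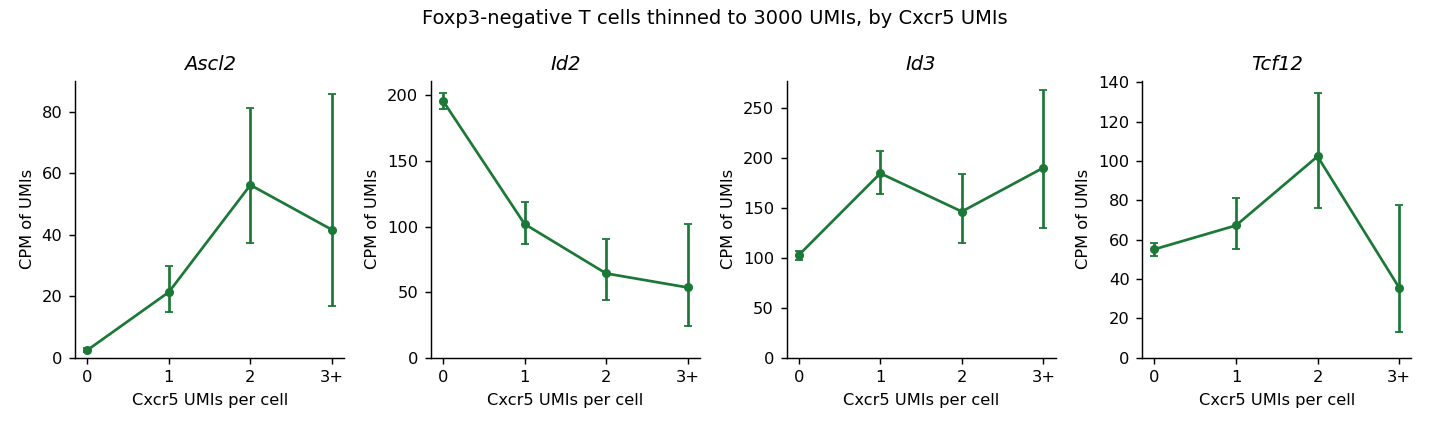
CPM of summed UMIs of Ascl2, Id2, Id3 and Tcf12 in Foxp3-negative T cells thinned to 3000 UMIs, by the number of Cxcr5 UMIs in the cell; points are sums over 6547, 530, 166 and 56 cells and bars are exact Poisson 95% intervals. Ascl2 is at 2.49 CPM with no Cxcr5 UMI and at 56.2 CPM with 2, while Id2 is at 196 CPM and 64.3 CPM.

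The abundant Id genes, Id2 and Id3, differed in opposite directions in the Tfh gate. Id2 had 95.4 CPM in the Tfh gate (88.2 to 103), against 208 CPM in other T cells (204 to 212), 2.18-fold lower (2.01 to 2.36). Id3 had 147 CPM in the Tfh gate (138 to 157), against 94.6 CPM in other T cells (91.9 to 97.4), a ratio of 1.56 (1.45 to 1.67). Id3 made up 59.4% of the UMIs of the 3 Id genes in the Tfh gate (57.0 to 61.7%) and 31.3% in other T cells (30.5 to 32.0%). After thinning, Id2 was detected in 15.1% of Tfh-gate cells and 25.6% of other T cells, and Id3 in 32.4% of Tfh-gate cells and 19.0% of other T cells. Without cells that had a UMI of a cycling gene the ratios were 0.443 for Id2 and 1.73 for Id3.

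Cxcr5 and Pdcd1 went with different Id levels. Foxp3-negative cells with Cxcr5 alone had Id levels near those of the Tfh gate, with 110 CPM of Id2 and 148 CPM of Id3; the Tfh-gate level of Id3 over theirs was 0.993 (0.896 to 1.10). Cells with Pdcd1 alone had 317 CPM of Id2, the highest of the 8 marker combinations, and 105 CPM of Id3. Cells with none of the markers had 189 CPM of Id2 and 85.6 CPM of Id3. Id2 was lower with more Cxcr5 UMIs in Foxp3-negative cells, at 196, 102, 64.3 and 53.6 CPM for 0, 1, 2 and 3 or more UMIs after thinning. The intervals at 0 and 1 UMI do not overlap. Those at 1 and 2 UMIs (86.8 to 119 and 44.0 to 90.7 CPM) overlap only at their ends, and those at 2 and at 3 or more overlap. An overlap does not show that a step is within counting error, and no ratio intervals were computed for these steps. Id2 had no such order with Pdcd1 UMIs, at 180, 241, 148 and 211 CPM. Id3 was higher with any Cxcr5, at 185, 147 and 190 CPM for 1, 2 and 3 or more UMIs, against 103 CPM with none.

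**Figure D2:**
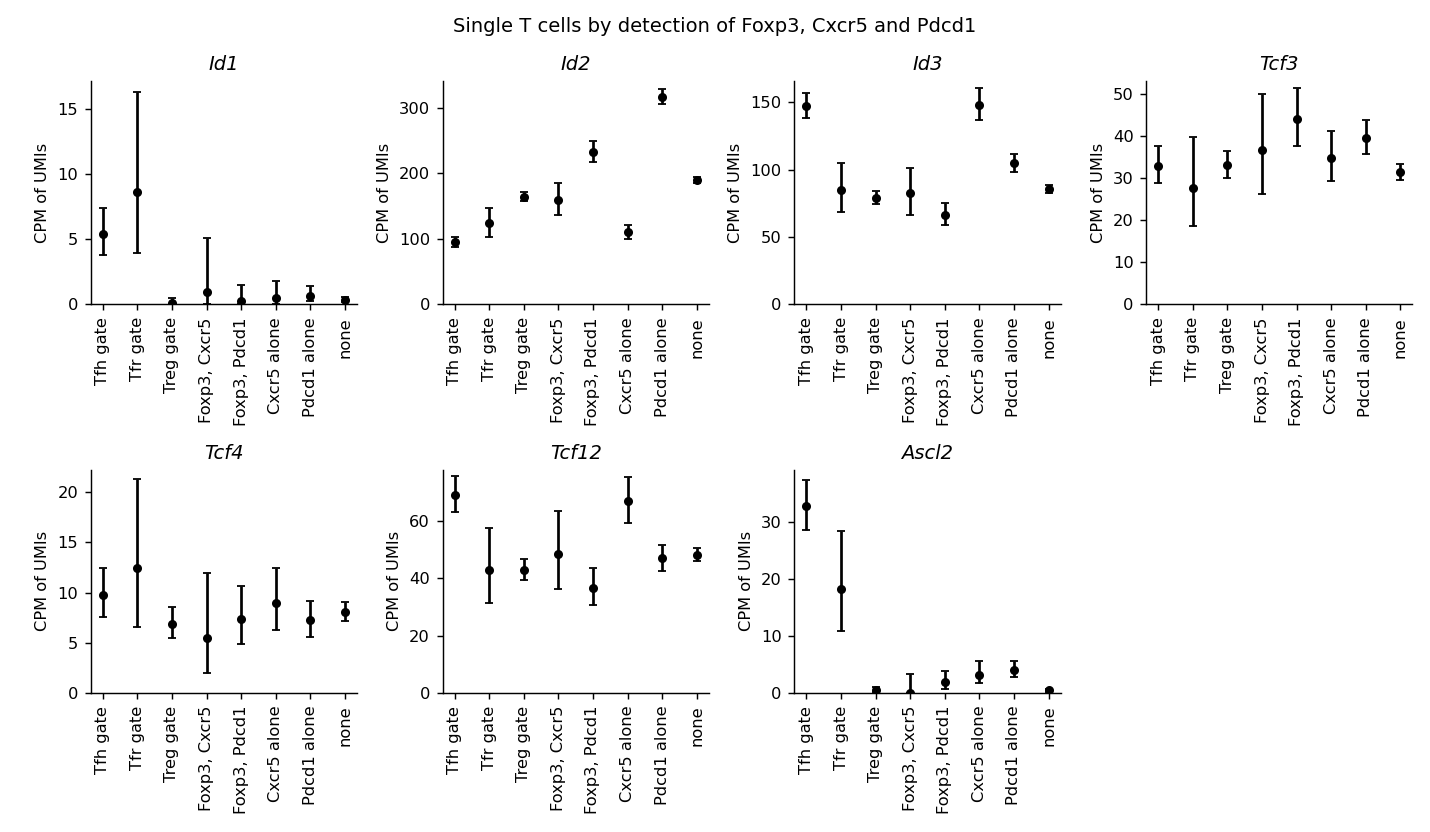
CPM of summed UMIs (linear axis from 0) of each member in the 8 combinations of Foxp3, Cxcr5 and Pdcd1 detection; bars are exact Poisson 95% intervals. Ascl2 is high in the Tfh and Tfr gates, Id2 is highest with Pdcd1 alone (317 CPM), Id3 is highest with Cxcr5 alone and in the Tfh gate (148 and 147 CPM), and Tcf3 stays between 27.7 and 44.1 CPM.

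Among the E proteins, Tcf12 was higher in the Tfh gate than in other T cells beyond counting error, and Tcf3 and Tcf4 were not. Tcf12 had 69.1 CPM in the Tfh gate (63.0 to 75.6) and 49.6 CPM in other T cells (47.6 to 51.6), a ratio of 1.39 (1.26 to 1.54), and cells with Cxcr5 alone had 67.0 CPM. After thinning, Tcf12 was detected in 21.3% of Tfh-gate cells and 14.9% of other T cells. Tcf3 had 33.0 CPM in the Tfh gate and 33.3 CPM in other T cells, a ratio of 0.99 (0.857 to 1.14). Tcf4 was low in all T cells, at 9.77 CPM in the Tfh gate and 7.98 CPM in other T cells, a ratio of 1.22 (0.930 to 1.59). Over the 3 genes of each kind, there were 2.22 Id UMIs per E protein UMI in the Tfh gate (2.03 to 2.42) and 3.33 in other T cells (3.22 to 3.45).

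Id1 was rare and its level rested on a few cells. The Tfh gate held 37 Id1 UMIs in 12 cells, of which 13 were in 1 cell, and other T cells held 19 UMIs in 16 cells. The CPM ratio of 13.7 (7.66 to 25.1) treats those UMIs as independent, which they are not. The Tfr gate held 9 UMIs in 3 cells, 7 of them in 1 cell, and the Treg gate 1 UMI. After thinning, 0.979% of Tfh-gate cells and 0.152% of other T cells had an Id1 UMI.

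The Tfr gate was set against the Treg gate, since both hold Foxp3. Ascl2 had 19 UMIs in 8 of 76 Tfr-gate cells, or 18.2 CPM (10.9 to 28.4), and 6 UMIs in 5 of 1551 Treg-gate cells, or 0.497 CPM (0.182 to 1.08). The ratio was 36.6 (14 to 112). Id2 had 123 CPM in the Tfr gate and 164 CPM in the Treg gate, a ratio of 0.750 (0.623 to 0.897), while Id3 had 85.1 CPM in the Tfr gate and 79.2 CPM in the Treg gate, a ratio of 1.07 (0.855 to 1.34). The Tcf3 ratio was 0.837 (0.553 to 1.22), the Tcf12 ratio 1.0 (0.723 to 1.36) and the Tcf4 ratio 1.81 (0.924 to 3.26). Of 6 members with at least 10 CPM in either gate, 1 (Ascl2) was at least 2-fold higher, where 3.07% of 7658 genes were, and 0 were at least 2-fold lower, where 2.72% were. Ascl2 again reached 10 CPM only through the gate where it is high.

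These Tfr-gate values came with markers of Tfh cells. The Tfr gate had 34.4 CPM of Il21 and 44.0 CPM of Sostdc1, against 0.497 and 0.745 CPM in the Treg gate. Foxp3 was at 183 CPM in the Tfr gate and 309 CPM in the Treg gate. Both gates required a Foxp3 UMI and Tfr-gate cells were deeper, so the rule itself shifts these 2 values and they are not compared. Il2ra, a Treg marker, was at 139 CPM in the Tfr gate and 231 CPM in the Treg gate. Ikzf2, another Treg marker, was at 696 CPM in the Tfr gate and 790 CPM in the Treg gate, and at 219 CPM in the Tfh gate. Whether Tfh RNA or a captured Tfh cell contributed to the Ascl2 level was not tested. With gates drawn on UMIs thinned to 3000, 15 Tfr-gate cells remained with 0 Ascl2 UMIs and an Id2 ratio of 1.28, with an interval of 0.791 to 1.96. The floor of 3 UMIs in those cells is 34.5 CPM, above the Ascl2 level of the whole Tfr gate, so the Ascl2 difference was not detectable there. Without cells that had a UMI of a cycling gene, 32 Tfr-gate cells remained, the Ascl2 ratio was 54.0 and the Id2 ratio was 1.20 (0.864 to 1.62).

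Between the Tfh and Tfr gates, which both have Cxcr5 and Pdcd1, the Tfh gate had more Id3 (ratio 1.73, 1.39 to 2.17) and more Tcf12 (1.61, 1.18 to 2.23). It had less Id2 (0.773, 0.639 to 0.942). The Ascl2 ratio was 1.80 (1.12 to 3.04), but the Tfr-gate level came from 19 UMIs in 8 cells, with 6 UMIs in 1 cell. After thinning, an Ascl2 UMI was found in 9.23% of Tfh-gate cells and 9.33% (3.84 to 18.3%) of Tfr-gate cells, so the shares showed no difference. The Tcf3 ratio was 1.19 (0.805 to 1.82). Of 6 members tested, 0 were at least 2-fold higher in the Tfh gate than in the Tfr gate, where 3.1% of 7706 genes were, and 0 were at least 2-fold lower, where 3.35% were.

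Ascl2 was also counted in both other pairs with a gate that holds Cxcr5 and Pdcd1, each time reaching 10 CPM only through that gate; Id1 was under 10 CPM throughout and is not counted. In the Tfh gate over the Treg gate Ascl2 was the 1 of 5 tested members at least 2-fold higher, where 3.83% of 7626 genes were, and 0 were lower, where 4.2% were. In the Tfr gate over other T cells it was the 1 of 6 higher, where 7.66% of 7640 genes were, and 0 were lower, where 2.97% were. In the Treg gate over other T cells, 0 of 4 tested members were at least 2-fold higher, where 3.93% of 7378 genes were, and 0 were lower, where 1.04% were. By level of Id3 the order was Tfh gate, other T cells, Tfr gate and Treg gate, and the interval of the Tfr gate (68.3 to 105 CPM) overlaps those of both its neighbours. By level of Id2 it was other T cells, Treg gate, Tfr gate and Tfh gate, and no neighbouring intervals overlap except those of the Tfr gate (103 to 147 CPM) and the Tfh gate (88.2 to 103 CPM), which meet at their ends.

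Among Foxp3-positive cells, Id2 and Id3 differed with effector markers. The markers were chosen after values were seen. Gzmb encodes the cytotoxic granule protease granzyme B, and its cells are compared with Foxp3-positive cells that have no Gzmb UMI. The 870 cells with a Gzmb UMI had 235 CPM of Id2, against 115 CPM in the 1228 cells without, a ratio of 2.05. The same cells had 30.1 CPM of Id3, against 126 CPM in those without, a ratio of 0.239. Klrg1, an effector Treg surface receptor, gave ratios of 1.48 for Id2 and 0.352 for Id3. Prdm1, which encodes the effector factor Blimp-1, gave 0.366 for Id3. Tcf7, which encodes the memory-type factor TCF-1, gave the opposite order, 0.550 for Id2 and 2.21 for Id3, and the lymph node homing receptor gene Ccr7 gave 0.404 for Id2 and 1.62 for Id3.

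Foxp3-negative cells were divided in the same way, at a higher marker level. Cells with at least 2 Gzmb UMIs (264 cells) had 598 CPM of Id2 and 25.6 CPM of Id3, against 161 and 108 CPM in the 7238 cells with none. The Id2 ratio was 3.72 and the Id3 ratio 0.238. Tbx21, the Th1 factor, gave 2.24 for Id2 and 0.300 for Id3. Its 44 cells had a median of 19503 UMIs, against 5826 in cells with none, and no Tbx21 value without cycling cells was computed. Prdm1 gave 1.77 for Id2 and 0.0660 for Id3, the lowest Id3 ratio, from 6 Id3 UMIs in 52 cells. Gata3, the Th2 factor, was an exception, with 2.18 for Id2 and 0.982 for Id3. Tcf7 gave 0.275 for Id2 and 1.77 for Id3, and Bcl6 gave 0.278 for Id2 and 1.27 for Id3, with an Ascl2 ratio of 15.4. Without cycling cells the Tcf7 ratios were 0.312 for Id2 and 1.22 (1.12 to 1.34) for Id3, so the Id3 difference was smaller there. No Bcl6 value without cycling cells was computed.

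**Figure D3:**
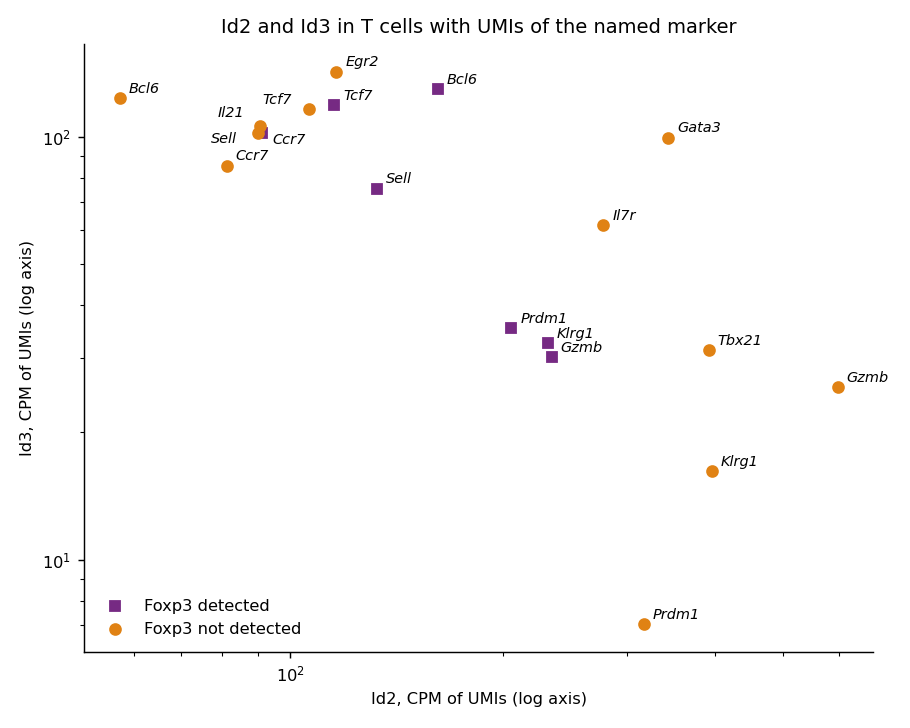
Id2 against Id3 (CPM of summed UMIs, log axes) in T cells that have the named marker, at 1 UMI or more among Foxp3-positive cells (squares) and at 2 or more among Foxp3-negative cells (circles). Gzmb, Klrg1 and Prdm1 cells sit at high Id2 and low Id3, and Tcf7, Bcl6 and Ccr7 cells at lower Id2 and higher Id3 than those.

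Cycling cells had less Id3, Tcf12, Tcf4 and Ascl2 and more Id2 and Tcf3. The 879 T cells with at least 3 UMIs of the cycling genes Mki67, Top2a and Birc5 had a median of 17892 UMIs. Their Id3 level was 52.2 CPM, against 109 CPM in the 7375 cells with none, and their Tcf12 level was 32.1 CPM, against 54.7 CPM in the cells with none. The ratio was 0.665 (0.528 to 0.830) for Tcf4 and 0.705 (0.511 to 0.959) for Ascl2. It was 1.43 (1.38 to 1.49) for Id2 and 1.35 (1.23 to 1.48) for Tcf3. With cycling cells left out, the Foxp3-positive Gzmb ratios were 2.81 for Id2 and 0.364 for Id3, and the Foxp3-negative ones 5.91 for Id2 and 0.387 for Id3. The Tcf12 ratio of Foxp3-positive Gzmb cells, 0.705 over all cells, was 0.938 (0.758 to 1.16) without cycling cells, so its difference was not seen there.

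Id2 and Id3 were rarely detected in the same Treg cell. After thinning, an Id3 UMI was found in 9.80% (7.10 to 13.1%) of the 408 Treg-gate cells with an Id2 UMI and in 21.8% (19.3 to 24.4%) of the 1024 without. In other T cells the shares were 16.1% with an Id2 UMI and 20.0% without. In the Tfh gate they were 25.9% with and 33.6% without, with overlapping intervals. Of 715 Tfh-gate cells, 28.5% had Id3 alone, 11.2% Id2 alone, 3.92% both and 56.4% neither; of 1432 Treg-gate cells, 15.6% had Id3 alone, 25.7% Id2 alone, 2.79% both and 55.9% neither. A cell with neither gene may still express both below detection at this depth. In Tfh-gate cells with an Ascl2 UMI, Id3 was found in 24.2% (14.5 to 36.4%), against 33.3% (29.7 to 37.1%) without, and the intervals overlap. With cells thinned to 2000 UMIs the shares were 10.5% (3.96 to 21.5%) with an Ascl2 UMI and 26.2% (22.9 to 29.7%) without, and the intervals do not overlap, so this comparison depends on the thinning.

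The study asks about Tfh cells that make Sostdc1, so the Tfh gate was split by a Sostdc1 UMI. The 120 cells with one had 52.0 CPM of Ascl2 (39.6 to 67.0), against 28.8 CPM (24.6 to 33.6) in the 612 cells without, a ratio of 1.80 (1.32 to 2.44). The median was 7086.5 UMIs per cell with a Sostdc1 UMI and 7418 without. After thinning, the Ascl2 share was 13.4% (7.88 to 20.9%) with a Sostdc1 UMI and 8.39% (6.29 to 10.9%) without, with overlapping intervals. Il21 stood at 93.4 CPM with a Sostdc1 UMI and 72.7 CPM without, Pdcd1 at 361 CPM with and 321 CPM without, and Bcl6 at 75.7 CPM with and 61.7 CPM without, and their part in the Ascl2 difference was not tested. The other members did not differ beyond counting error, with ratios of 1.12 for Id3 (0.946 to 1.31), 0.953 for Id2 (0.765 to 1.18), 1.12 for Tcf12, 1.02 for Tcf3, 1.21 for Tcf4 and 1.62 for Id1 (0.672 to 3.53).

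**Figure D4:**
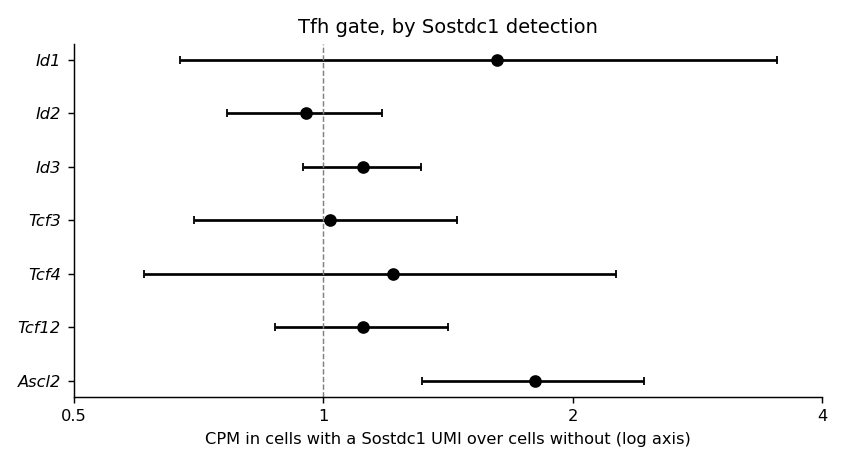
Ratio of CPM in the 120 Tfh-gate cells with a Sostdc1 UMI over the 612 without, for each member, on a log axis; bars are exact conditional binomial 95% intervals and the dashed line marks a ratio of 1. The Ascl2 interval, 1.32 to 2.44, is the one that does not reach 1.

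In the bulk Tfr libraries the E protein Tcf3 and the inhibitor Id3 were lower in the library labelled KO. Tcf3 had 795 counts (28.6 CPM) in the library labelled KO, against 2826 counts (156 CPM) in the library labelled WT, 5.46-fold lower (5.05 to 5.92). Its log2 ratio of CPM + 1 was -2.41, and 0.775% of the 10194 tested genes lay at or below it. Id3 had 36 counts (1.30 CPM) in the library labelled KO, against 98 counts (5.42 CPM) in the library labelled WT, 4.18-fold lower (2.83 to 6.31), with a log2 ratio of -1.48. Id3 entered the count only through the library labelled WT, which lies just above the minimum of 5 CPM, and with a pseudocount of 5 CPM its log2 ratio was -0.73, so the 2-fold call was lost. Of the 7 members, 5 reached 5 CPM in a library; among these, 2 were at least 2-fold lower, where 9.12% of all tested genes were, and 0 were at least 2-fold higher, where 2.6% were.

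Id2, Tcf12 and Tcf4 had ratios whose intervals include 1. Id2 had 152 CPM in the library labelled KO, against 151 CPM in the library labelled WT, a ratio of 1.01 (0.959 to 1.06). Tcf12 had 115 CPM in the library labelled KO, against 117 CPM in the library labelled WT, a ratio of 0.984 (0.931 to 1.04). Tcf4 had 9.07 CPM in the library labelled KO, against 9.24 CPM in the library labelled WT, a ratio of 0.982 (0.804 to 1.20). Id1 was below the minimum, with 30 counts (1.08 CPM) in the library labelled KO, 35 counts (1.94 CPM) in the library labelled WT, for a ratio of 0.558 (0.331 to 0.935). Ascl2 had 3 counts in the library labelled KO, against 2 in the library labelled WT, at or under the floor of 3 counts, which is 0.108 CPM in the library labelled KO, against 0.166 CPM in the library labelled WT, so no fold is given. The sum of the 3 E protein genes was 153 CPM in the library labelled KO, against 282 CPM in the library labelled WT, a ratio of 0.540 (0.519 to 0.563), and that of the 3 Id genes was 155 CPM in the library labelled KO, against 158 CPM in the library labelled WT, a ratio of 0.975 (0.930 to 1.02).

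**Figure D5:**
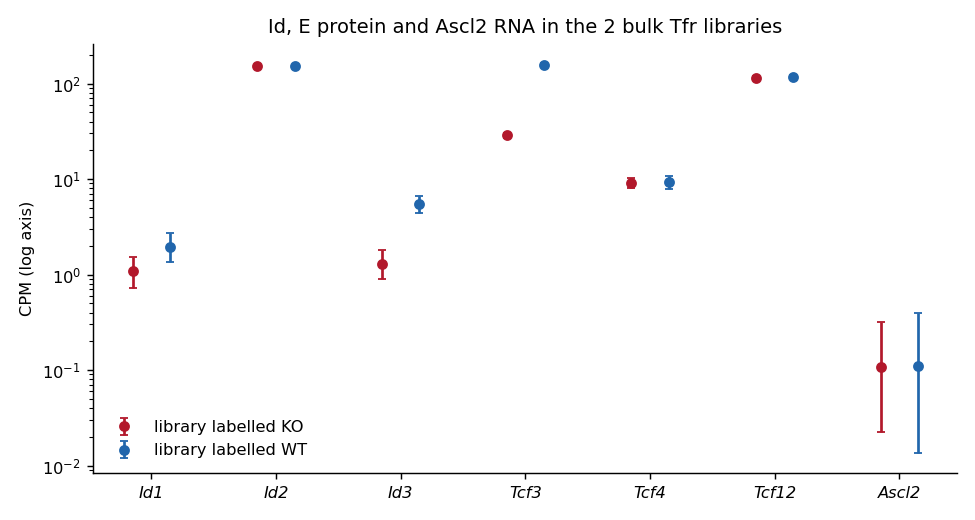
CPM (log axis) of each member in the bulk Tfr libraries labelled KO and WT, 1 library each; bars are exact Poisson 95% intervals on the counts. Tcf3 (28.6 CPM labelled KO, 156 CPM labelled WT) and Id3 (1.30 CPM labelled KO, 5.42 CPM labelled WT) stand apart, and Ascl2 is at the floor in both.

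Fewer cells of a type and less RNA per cell cannot be told apart in bulk values. Markers of other cells were low: the B cell list (4 genes) summed to 10.8 CPM in the library labelled KO, against 12.4 CPM in the library labelled WT, the plasma list (3 genes) to 2.66 CPM labelled KO and 4.92 CPM labelled WT, and the NK list (4 genes) to 3.53 CPM labelled KO and 1.38 CPM labelled WT. The myeloid list summed to 43.5 CPM labelled KO and 18.7 CPM labelled WT, with 2 of its 5 genes at least 2-fold higher in the library labelled KO. No marker of these 4 lists was at 0. The Tfh cytokine genes Il21 (82.8 CPM labelled KO, 4.09 CPM labelled WT) and Il4 (46.5 CPM labelled KO, 1.66 CPM labelled WT) were also higher in the library labelled KO. Their part in the Tcf3 and Id3 differences was not tested. In single T cells Tcf3 ranged from 27.7 to 44.1 CPM over the 8 combinations, and Ascl2 was found in 8 of 76 Tfr-gate cells.

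Tcf3, Tcf4 and Id3 were also found outside T cells in the single-cell library. Tcf3 stood at 80.0 CPM in plasma cells, 65.3 CPM in myeloid cells and 51.3 CPM in B cells, against 33.8 CPM in all T cells. Tcf4 stood at 691 CPM in 166 myeloid cells, 164 CPM in 213 B cells and 146 CPM in 59 plasma cells, against 7.96 CPM in all T cells. Id3 had 150 CPM in B cells and made up 88.8% of Id UMIs there, with Id2 at 18.9 CPM. In plasma cells Id3 had 173 CPM. Id1 was found at 29.8 CPM in myeloid cells.

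Other genes of the pathway were grouped by role, with the gate markers left out; those named from single cells are the ones past 2-fold, so they were chosen after their values were seen. In the Tfh gate over other T cells, the receptor and Smad inputs to Id genes had 13 tested members, of which 2 were at least 2-fold higher and 2 lower, beside 3.46% higher and 1.72% lower over all genes. The higher ones encode zinc finger factors induced by receptor signalling: Egr1 had 78.8 CPM in the Tfh gate and 38.6 CPM in other T cells, and Egr2 had 20.7 CPM in the Tfh gate and 7.82 CPM in other T cells. The lower ones were the receptor gene Acvrl1, with 3.79 CPM in the Tfh gate and 10.5 CPM in other T cells, and the inhibitory Smad7, with 24.8 CPM in the Tfh gate and 113 CPM in other T cells. The E and Id protein cofactor list had 2 of 7 higher and 0 lower: Lmo4 had 130 CPM in the Tfh gate and 51.7 CPM in other T cells, and Cbfa2t3 had 15 CPM in the Tfh gate and 1.31 CPM in other T cells. Of the 5 tested genes linked to Ascl2 in mouse T cells, 1 was higher, the chemokine receptor gene Cxcr4, with 46.1 CPM in the Tfh gate and 14.7 CPM in other T cells. Another 3 were lower, Ccr7 (46.1 CPM in the Tfh gate, 174 CPM in other T cells), Selplg (105 CPM in the Tfh gate, 262 CPM in other T cells) and Il2ra (9.33 CPM in the Tfh gate, 31.4 CPM in other T cells). The list median was -1.32 on the log2 scale, against 0.18 over all genes tested. The E protein-linked list had 1 of 5 lower, the cytokine receptor gene Il7r, with 43.8 CPM in the Tfh gate and 248 CPM in other T cells. Of the 15 follicular genes, 9 were higher and 0 lower. Egr2, Cbfa2t3, Il21, Il4 and S1pr2 reached 10 CPM only through the Tfh gate, and Acvrl1 and Il2ra only through other T cells.

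The same lists were read in the Tfr gate over the Treg gate, where the median over all genes tested was 0.08 on the log2 scale and 3.07% were at least 2-fold higher and 2.72% lower. Of 10 tested inputs, 2 were at least 2-fold higher (Egr1, with 91.8 CPM in the Tfr gate and 24.5 CPM in the Treg gate, and Egr2, with 21.0 CPM in the Tfr gate and 4.06 CPM in the Treg gate) and 1 lower (Tgfbr1). Of 3 tested bHLH-Orange repressors, 2 were higher, Bhlhe40 and Hey1. The cofactor list had 1 of 6 higher, Lmo4. The E protein-linked list had 1 of 8 higher, Gfi1, and 1 lower, Il7r. Of the 5 tested Ascl2-linked genes 0 passed 2-fold in either direction, with a median of -0.72, and of the 15 follicular genes 7 were higher and 0 lower. Egr2, Hey1, Bhlhe40, Gfi1, Bcl6, Il21, Il4, Tox2 and Angptl2 reached 10 CPM only through the Tfr gate, Hey1 with 19 UMIs and Gfi1 with 11, and Tgfbr1 only through the Treg gate.

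In bulk, lists are given for the library labelled KO over the library labelled WT. Of all tested genes, 2.6% were at least 2-fold higher and 9.12% lower. Of 16 tested inputs, 4 were at least 2-fold lower in the library labelled KO (2 with TMM scaling, which takes a trimmed mean of log ratios as the library scale), where 9.12% of all tested genes were, including Egr3 (75 CPM labelled KO, 199 CPM labelled WT) and Tgfb1 (263 CPM labelled KO, 565 CPM labelled WT), and the median was 0.02, against -0.04 over all tested genes. The cofactor list had 1 of 8 lower, Ldb1 (97.9 CPM labelled KO, 212 CPM labelled WT), which bridges E protein complexes, and 0 with TMM scaling. The E protein-linked list had 9 tested genes, with Il10 higher (412 CPM labelled KO, 190 CPM labelled WT) and Socs1 (34.3 CPM labelled KO, 163 CPM labelled WT) and Notch1 (286 CPM labelled KO, 618 CPM labelled WT) lower, and 1 lower with TMM scaling. The follicular list had 4 of 15 higher, Angptl2 and Cd200 among them, where 2.6% of all tested genes were. In that list 0 were lower, where 9.12% of all tested genes were, and the median was 0.65. The Ascl2-linked list had 0 of 7 past 2-fold. Of the 10 class II bHLH genes in the table, Id4 included, 0 reached 5 CPM, and of 2 tested bHLH-Orange repressors 1 was lower, Hes6 (10.9 CPM labelled KO, 25.9 CPM labelled WT), a call lost with a pseudocount of 5 CPM.

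Genes whose levels ran most like each member over the 8 marker combinations were taken as the 3 with the highest Pearson r among 7631 genes, as a description over points from 1 library that share its depth. For Id2 they were Cxcr6 (r = 0.985), a chemokine receptor gene of effector cells, Dph7 and Dnajc15. For Id3 they were Mgrn1 (0.986), Cnot3 and Dido1. For Tcf12 they were Zer1 (0.984), Vps13a and Rnf145, for Tcf4 Rsbn1 (0.963), Fnbp4 and Akap8, and for Tcf3 Lyrm9 (0.957), Faap100 and Mad2l2. For Ascl2 they were Fgfr1op (0.986), Krt83 (0.976) and Fmnl3 (0.975). All these r values are the highest of 7631 over 8 points, and no chance level was computed for them. They therefore do not show that a gene is expressed together with a member. For Tcf4 the intervals of all 8 combinations overlap, though its ratio of the Tfh gate over the Treg gate was 1.42 (1.01 to 1.99). The genes listed for Tcf4 therefore follow differences that are small beside counting error.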

How the data were processed

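RNA was measured in mouse T cells; values of 3 of the 11 samples were used. The authors deposited whole-number counts per gene for the 2 bulk Tfr libraries and a single-cell matrix of UMI counts per gene and barcode. The deposited normalized values of the bulk table are CPM, close to each count scaled by its library total. Deposited p-values, ratio and log2 fold change columns were not used. Per the submitters' processing notes, the tools include Cell Ranger 2.1.0, Seurat 2, TopHat and Cufflinks, and the builds mm9 and mm10 are listed with no roles; per the file headers, the matrix came from Cell Ranger 3.1.0. For the bulk counts, the counter and strand setting are not given in the sources, so reads of Tcf4 and Tcf12 cannot be told apart from overlapping annotated genes. The bulk column of the library labelled WT carries a number that its sample title lacks; no other sample is labelled as RNA of WT Tfr cells.

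CPM were recomputed from counts and library totals. Genes were tested by size, at least 2-fold on log2(CPM + 1), among those with at least 5 CPM in a library; ratios have exact conditional binomial intervals. The bulk calls and ratio intervals were tested on simulated data. For 13 repeated symbols the line with the higher mean was used. In single cells, barcodes under 500 genes (835) or with at least 10% mitochondrial UMIs (977) were removed, then the 10% of cells with the highest doublet score (1319; 2 simulated doublets per cell, 30 principal components), then 160 cells with at least 3 B and 3 T cell UMIs, leaving 11711. T cells had at least 1 UMI of Cd3d, Cd3e or Cd3g, at most 1 of each B, myeloid and NK list, and were not CD8-like. Single-cell lists were read at 10 CPM or more in either population. UMI sums have exact Poisson and shares Clopper-Pearson intervals; UMIs of 1 cell are not independent, and PCR reads without identifiers are not independent molecules. Named genes were the members, gate markers, Sostdc1, up to 4 genes of each list with the largest bulk log2 ratio and at least 5 CPM, and 3 genes most like each member. The members, lists, gates and rules were chosen with earlier results of these data known. Python 3.11.15, numpy 2.4.6, scipy 1.17.1, pandas 2.3.3, scanpy 1.11.5 and matplotlib 3.10.9 were used. Alternatives were TMM scaling, other pseudocounts and minimum levels, other cell filters, stricter or thinned gates, means over cells and, chosen after seeing the data, gates without cycling cells.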

Additional observations from a re-analysis of the deposited data

How the results depend on the processing

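No paired analysis was possible because each group used here has 1 library; the samples whose labels share replicate numbers were not analysed. Precision is limited by 1 library in each group and by the 76 cells of the Tfr gate.

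In bulk, TMM scaling moved the median of all genes to 0.11 (log2), so directions near 0 turn: Id2 was 0.16 and Tcf12 0.13, with Tcf3 at -2.26. The count of genes at least 2-fold higher was 414 under TMM and 160 with a pseudocount of 5 CPM, which also gave 604 lower and an Id3 log2 ratio of -0.73, no longer 2-fold; fewer low genes reach 2-fold by its construction.

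For the Tfh gate over other T cells, mitochondrial UMIs under 5% gave ratios of 1.44 for Id3 and 33.3 for Ascl2. Gate markers at 2 UMIs gave 28.1 for Id1, 0.399 for Id2 and 39.2 for Ascl2. Gates on thinned UMIs gave 5.50 for Id1, 0.403 for Id2, 1.80 for Id3 and 1.62 for Tcf12. The mean over cells gave 0.413 for Id2. Without cycling cells, chosen after seeing the data, Id3 was 1.73, Tcf3 1.15, Tcf4 0.925 and Ascl2 37.5. All of these kept their direction except Tcf3 and Tcf4, whose main intervals include 1.

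For the Tfr gate over the Treg gate, markers at 2 UMIs left 9 Tfr-gate cells, with 0.392 for Id3 (0.143 to 0.859), 0.433 for Tcf3 and 0 for Tcf4. Without removal by doublet score Id3 was 1.24 (1.04 to 1.48). Both of these Id3 intervals leave out 1, in opposite directions, so the direction of Id3 depends on the filters. Gates on thinned UMIs left 15 cells and gave 1.28 for Id2, reversed with an interval that includes 1, 0.764 for Id3, 0.526 for Tcf12 and 0 for Ascl2, whose 0 UMIs are too few to show a difference in either direction; the 0 for Tcf4 is of the same kind. The mean over cells gave 0.937 for Id2, and without cycling cells Id2 was 1.20, reversed, and Tcf12 0.573. The cause was not tested. For the same comparisons, 24 bulk and 88 single-cell values stayed within counting error of the main value or, for counts of genes, within 1.5 times the main count. Among the rest, 6 bulk values moved further and 1 fell under 2-fold, while 21 single-cell values moved further and 3 reversed direction.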
